A study of Mus musculus with 20 samples.

Results

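The knockdown of Pcgf5 at the morula stage is described here from 4 of the 20 samples of the series, 2 libraries of morulae treated with small interfering RNA against Pcgf5 (siPcgf5) and 2 treated with a non-targeting control siRNA (siControl). The series holds 16 RNA libraries in all, and the members were taken by their labels, as every RNA library of the morula stage. Mouse embryos were produced by in vitro fertilisation, electroporated with siRNA at the zygote stage, 3 hours after insemination, and collected 72 hours after insemination. Each library came from 10 pooled embryos, so that differences among embryos were averaged, and both groups went through the same electroporation. The labels name no genetic change in either group and do not separate the libraries into batches. The other 4 knockdown libraries, from the late 2-cell stage 36 hours after insemination, entered the statistical model to estimate the spread. Chromatin libraries for H2AK119ub1 were not analysed here. In such pools, fewer cells of a type and less RNA per cell cannot be told apart. Nothing says that the libraries of a group came from separate cultures, so the p-values below reflect how much these libraries vary, which may be technical variation.

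PCGF proteins are the ring-finger partners that give each Polycomb repressive complex 1 (PRC1) its identity. Together with the E3 ligases RING1 and RNF2 they place ubiquitin on a lysine near the end of histone H2A, a mark of silent developmental genes, imprinted loci and the inactive X chromosome. PCGF5 and its close relative PCGF3 build variant PRC1 complexes that are recruited early to X chromosome silencing by Xist RNA. The morula is the stage at which the blastomeres compact and polarise and the first choice between trophectoderm, the future placenta, and inner cell mass begins. The comparison asks what a loss of Pcgf5 mRNA that lasted from the zygote is accompanied by at this later stage.

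Pcgf5 lies on chromosome 19 at 36348329 to 36460970 on the plus strand of GRCm38.p6, and the deposited files count it as 1 gene on a transcript of 1509 bases. RefSeq lists 3 start sites for the gene, while the counts do not separate transcripts by start. The 300-base windows around these starts (RefSeq, GRCm38.p6, plus strand, 250 bases before to 50 after the start) are shown because CpG-rich promoters are the usual seat of PRC1, with each CG in capitals.
Window 1, chr19:36348079-36348378: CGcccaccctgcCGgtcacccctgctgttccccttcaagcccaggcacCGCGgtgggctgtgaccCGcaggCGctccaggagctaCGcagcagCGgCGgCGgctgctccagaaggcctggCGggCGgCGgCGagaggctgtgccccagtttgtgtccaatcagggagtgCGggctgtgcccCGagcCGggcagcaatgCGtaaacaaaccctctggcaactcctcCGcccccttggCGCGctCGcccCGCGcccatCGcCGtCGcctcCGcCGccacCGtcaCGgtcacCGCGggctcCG
Window 2, chr19:36378817-36379116: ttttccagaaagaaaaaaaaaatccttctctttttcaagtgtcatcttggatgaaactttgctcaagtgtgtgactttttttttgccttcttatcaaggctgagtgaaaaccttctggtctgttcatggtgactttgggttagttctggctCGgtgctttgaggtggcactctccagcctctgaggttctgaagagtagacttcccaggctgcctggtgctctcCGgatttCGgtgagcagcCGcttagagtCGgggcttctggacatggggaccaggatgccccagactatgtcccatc
Window 3, chr19:36409498-36409797: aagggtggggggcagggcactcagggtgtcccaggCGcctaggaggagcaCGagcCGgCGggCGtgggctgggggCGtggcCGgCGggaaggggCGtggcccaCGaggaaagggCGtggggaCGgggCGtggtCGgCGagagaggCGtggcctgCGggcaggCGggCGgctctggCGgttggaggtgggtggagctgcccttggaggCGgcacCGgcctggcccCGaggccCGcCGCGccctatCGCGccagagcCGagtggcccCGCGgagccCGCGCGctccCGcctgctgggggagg
The first and the third window hold 34 and 35 CG dinucleotides, numbers reached by 7.7% and 7.0% of the 32851 windows in the RefSeq table. The second holds 5, a number reached by 62.0% of windows. CG reads the same on both strands, and the letters say nothing about which start is used in these embryos. The sequence of the siRNA is not given in the sources used here, so its place on the mRNA was not examined.

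The libraries held 48876598 and 48572533 expected counts in siControl and 37628616 and 55620137 in siPcgf5, with a count for 15491 to 16107 of the 24411 listed genes. Levels below are CPM (counts relative to a library size scaled by TMM) unless TPM (the deposited abundance corrected for transcript length, which allows genes to be compared) is named. Of 10 genes checked as morula markers, 8 lay above all late 2-cell libraries in every morula library, among them Pou5f1, Klf5 and Cdh1 at 45.4 to 63.8, 198 to 207 and 55.3 to 70.7 CPM. Krt18 overlapped between the stages, and Id2 was lower at the morula, at 19.6 to 69.6 CPM against 132 to 275 CPM. Zscan4c, a marker of the late 2-cell stage, was at most 0.25 CPM against at least 398 CPM at that stage. Tcstv3 kept the highest level of the late 2-cell markers checked, at 3.68 to 11.5 CPM against 62.1 to 164 CPM. Of the oocyte markers checked, Zp3 and Omt2b kept the highest levels, at 17.7 to 41.3 and 10.2 to 20.8 CPM. At the late 2-cell stage these oocyte markers were at 54.6 to 99.1 and 7334 to 11760 CPM. Cdx2, the defining trophectoderm factor, was low in all libraries, at 3.78 and 3.79 CPM in siControl and 2.42 and 2.21 CPM in siPcgf5. Markers of other cells were sparse. The 16 cumulus and granulosa markers summed to 2.19 to 4.45 CPM with 6 at 0 throughout, and the 10 sperm markers to 5.97 to 7.83 CPM with 3 at 0. The 13 blood and immune markers summed to 33.7 and 37.9 CPM in siControl and 48.2 and 40.8 CPM in siPcgf5, with 6 at 0. Hba-a2, an alpha-globin gene with a near-identical copy, made up 16.4 to 38.2 CPM of the latter sums. The part of such cells in the results was not tested.

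Pcgf5 mRNA stood at 243 and 165 CPM in the siControl libraries and at 38.8 and 32.0 CPM in the siPcgf5 libraries. The groups did not overlap, and both treated libraries lay far below the lower control. Relative to the control mean the treated libraries stood at 19% and 15.7%. The group means gave 17.3% of the control message and a log2 fold change of -2.53 (SE 0.436, n = 2 per group). In the edgeR fit of all 8 knockdown libraries this did not pass after adjustment over all genes (adjusted p = 0.242). In the edgeR fit of the 4 morula libraries alone Pcgf5 fell by 2.50 on the log2 scale (SE 0.211, adjusted p = 0.00197). DESeq2 on the 8 libraries also called it lower (adjusted p = 1.37e-05). The late 2-cell effect was -2.96, and the difference between the stages was 0.43 (SE 0.583, edgeR adjusted p = 1.00).

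None of the 5 paralogues of Pcgf5 passed the test (edgeR, 8 libraries, adjusted p = 1.00 for each): 3 were higher and 1 was lower in both siPcgf5 libraries, where 13.8% and 17.7% of all genes were. In TPM, Pcgf5 stood beside Pcgf1 as one of the most abundant members in control morulae, at 146 and 99.3 TPM against 108 and 113 TPM for Pcgf1. After knockdown Pcgf5 was at 24.3 and 19.3 TPM, close to Pcgf6 at 29.2 and 26.7 TPM. Pcgf1, the partner in the BCOR-containing variant complex, was at 180 and 138 TPM in siPcgf5, a log2 fold change of 0.48 (SE 0.309). Pcgf3, which builds the same kind of complex as Pcgf5, was at 25.2 and 21.1 CPM in siControl and 34.4 and 27.2 CPM in siPcgf5, a log2 fold change of 0.41 (SE 0.280). Pcgf6, of the E2F6 and MGA complex, was at 58.9 and 46.6 CPM in siControl and 67.5 and 64.2 CPM in siPcgf5 (0.32, SE 0.218). These 3 genes did not overlap between groups, but each distance was under 2 SE of the 8-library fit. In the edgeR fit of the 4 morula libraries Pcgf1 was at 0.51 with a smaller SE of 0.163, and did not pass (adjusted p = 0.863). Bmi1, also known as Pcgf4 and a partner in canonical PRC1, overlapped between groups at 32.6 and 34.3 CPM against 31.6 and 41.4 CPM. Pcgf2 was near the limit of detection, at 1.05 and 1.04 CPM in siControl and 0.52 and 0.090 CPM in siPcgf5.

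**Figure D1:**
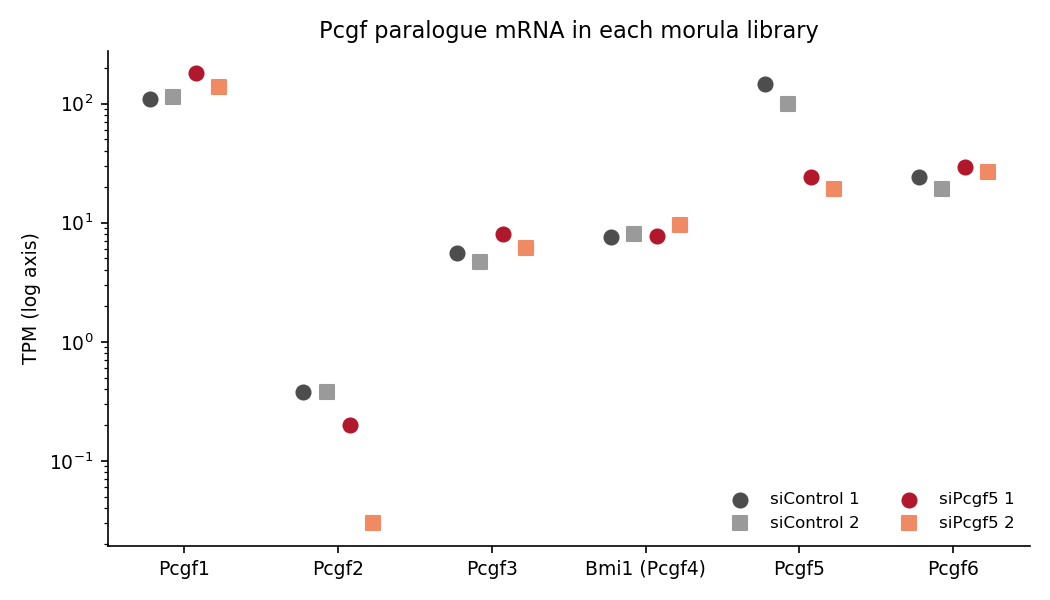
Deposited TPM (log axis) of the 6 Pcgf paralogues in each of the 4 morula libraries; grey points are siControl and red points siPcgf5, and each point is 1 library. Pcgf5 is at 146 and 99.3 TPM in siControl and at 24.3 and 19.3 TPM in siPcgf5, while Pcgf1, Pcgf3 and Pcgf6 sit slightly higher in both siPcgf5 libraries without passing the test.

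Beyond Pcgf5, few genes passed any test between the knockdown morulae and the controls, and which ones did depended on the tool and the libraries fitted. With edgeR on the 8 libraries 0 of 16980 genes passed in either direction (0% higher and 0% lower), with a smallest adjusted p of 0.0991. At an unadjusted p under 0.05 there were 254 higher genes (1.5%) and 462 lower genes (2.72%), together 4.22% of those tested. With edgeR on the 4 morula libraries 0 of 13575 genes rose and 1 fell (0.00737%), and that gene was Pcgf5. DESeq2 on the 8 libraries called 5 higher (0.0373%) and 24 lower (0.179%) of 13410 genes, of which 6 had a group mean of 10 CPM or more, all of them lower. DESeq2 on the 4 libraries called 5 higher (0.0274%) and 18 lower (0.0986%) of 18264 genes, and 7 genes were called by DESeq2 in both sets of libraries. The median log2 fold change over all genes was -0.01. At the late 2-cell stage the 8-library fit called 2 genes (0.0118%).

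Single libraries were then compared with each other. Over the 6697 genes whose higher group mean reached 10 CPM, the siControl libraries differed from each other with an SD of 0.37 on the log2 scale and the siPcgf5 libraries with an SD of 0.38. Across groups the SD ran from 0.34, between siControl replicate 1 and siPcgf5 replicate 2, to 0.47, between siControl replicate 2 and siPcgf5 replicate 1. Differences over 2-fold were seen in 90 genes between the controls and in 62 to 237 genes across groups. The distances across groups thus ran from below to above those within groups. Both siPcgf5 libraries lay above both controls for 2348 of the 16980 genes (13.8%) and below both for 2999 (17.7%), and 861 genes were at 0 in all 4 libraries. Among genes with at least 10 CPM these shares were 17.3% higher and 19.7% lower.

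**Figure D2:**
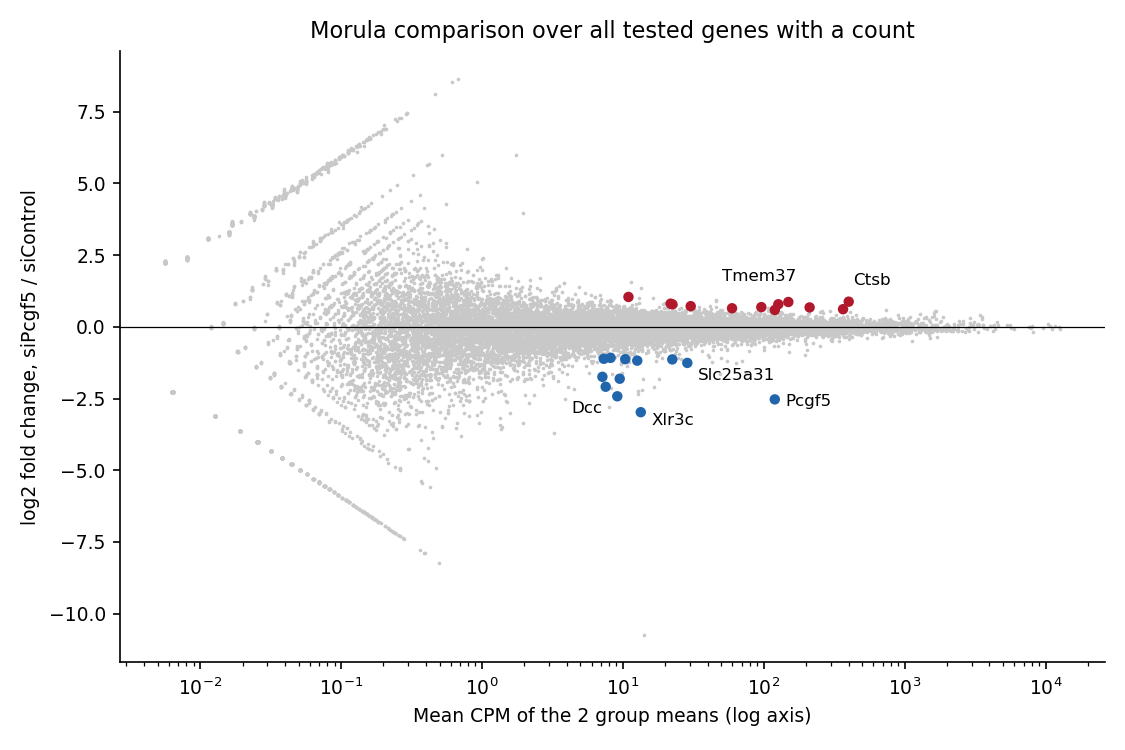
Log2 fold change of siPcgf5 over siControl from the edgeR fit of 8 libraries against the mean CPM of both groups (log axis) for every tested gene with a count; red and blue points are the 12 genes of smallest p in each direction among those with at least 10 CPM whose groups do not overlap. Pcgf5, at -2.53, stands alone below its neighbours of like abundance, and no other marked gene above 100 CPM lies beyond 1 in either direction; lines of points at low CPM are genes at 0 in one group.

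The genes lower in siPcgf5 included a netrin receptor, X-linked genes of the germ line and a chromatin remodelling ATPase. They were taken by smallest p among genes with at least 10 CPM whose groups do not overlap, leaving out predicted genes and pseudogenes, so their separation is a description of the choice. Dcc, a netrin receptor known for axon guidance, was at 16.5 and 14.2 CPM in siControl and at 3.25 and 2.51 CPM in siPcgf5. The controls lay close together and well above both treated libraries. Its log2 fold change was -2.42 (SE 0.312), with an adjusted p of 0.0991 with edgeR and 4.13e-08 with DESeq2 on the 8 libraries. Dcc also passed with edgeR on the 8 libraries without the filter on low counts (adjusted p = 3.09e-05). DESeq2 on the 4 morula libraries called it too (adjusted p = 3.40e-08), while limma and edgeR with DESeq2 size factors called 0 genes. At the late 2-cell stage the groups overlapped, at 45.3 and 65.4 CPM in siControl and 63.0 and 90.6 CPM in siPcgf5. The difference between the effects at the stages was -2.89 (SE 0.422, edgeR adjusted p = 0.281), the smallest adjusted p of the 16980 genes in that contrast, in which 0 passed (0%) and 842 had an unadjusted p under 0.05. Dcc did not pass with edgeR on the 4 morula libraries, but passed there without siControl replicate 1, siControl replicate 2 or siPcgf5 replicate 1 (adjusted p from 0.000707 to 0.0171). Neo1, the paralogue of Dcc, was at 11 and 9.05 CPM in siControl and 4.12 and 5.13 CPM in siPcgf5, a log2 fold change of -1.11 (SE 0.308). Dcc lies on chromosome 18 and Neo1 on chromosome 9.

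DESeq2 on the 8 libraries also called Xlr3c, Mospd2 and Slc25a31 lower. The last of the 6, Gm1140, is an X-linked predicted gene outside the naming rule, named here after its values were seen. It was at 9.71 and 18.1 CPM in siControl and 2.64 and 1.42 CPM in siPcgf5 (log2 fold change -2.78, SE 0.465, adjusted p = 0.242 with edgeR and 3.76e-05 with DESeq2 on the 8 libraries), and passed with both tools in some of the alternatives. Xlr3c, of an X-linked family expressed in the germ line and thymus, was at 8.33 and 39.3 CPM in siControl and 3.16 and 2.89 CPM in siPcgf5 (log2 fold change -2.98, SE 0.593, DESeq2 adjusted p = 1.21e-04). The controls differed more from each other than the lower control did from the treated libraries. Reads of the Xlr3 copies could be split between genes, so this value is uncertain. Mospd2, a protein of endoplasmic reticulum contact sites, was at 9.13 and 20.4 CPM in siControl and 4.87 and 3.59 CPM in siPcgf5 (-1.81, SE 0.376, DESeq2 adjusted p = 0.0121). Slc25a31, the germ-line ADP/ATP carrier of mitochondria, was at 31.4 and 49.5 CPM in siControl and 17.2 and 16.6 CPM in siPcgf5 (-1.26, SE 0.265, DESeq2 adjusted p = 0.0274). In both genes siControl replicate 2 was the highest library, and both treated libraries lay together below the controls. With edgeR on the 4 morula libraries Xlr3c, Mospd2 and Slc25a31 passed without siControl replicate 1 (adjusted p = 2.40e-06, 0.00754 and 0.0142), and Xlr3c also did so in the 8-library fit (0.00389).

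The other genes of this set had log2 fold changes between -2.09 and -1.08. Smarca2, an ATPase of the BAF chromatin remodelling complex, was at 17 and 18.1 CPM in siControl and 5.70 and 9.78 CPM in siPcgf5 (-1.18, SE 0.329). Reg1, a secreted lectin, was at 9.99 and 14.5 CPM in siControl and 2.45 and 3.30 CPM in siPcgf5 (-2.09, SE 0.578). Fbxo16, an F-box protein, was at 8.90 and 13.2 CPM in siControl and 2.74 and 3.84 CPM in siPcgf5 (-1.74, SE 0.452). Tex11, an X-linked meiotic gene, Calml4, a calmodulin-like protein, and Pign, an enzyme of GPI-anchor synthesis, had log2 fold changes of -1.13, -1.14 and -1.08. None of them passed with edgeR on the 8 libraries, where the adjusted p was 0.830 for Fbxo16 and 0.938 for the others. DESeq2 on the 4 morula libraries called Reg1 (adjusted p = 2.43e-04), Fbxo16 (0.0153) and Calml4 (0.0221) lower. With edgeR on the 4 morula libraries Reg1 passed without siControl replicate 1 (adjusted p = 0.0145).

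The genes higher in siPcgf5, chosen in the same way, included a lysosomal protease, a BMP-responsive factor and a second BAF subunit, with log2 fold changes from 0.59 to 1.04. Ctsb, the lysosomal protease cathepsin B, was at 305 and 260 CPM in siControl and 554 and 485 CPM in siPcgf5 (log2 fold change 0.88, SE 0.223). Tmem37, a calcium channel gamma-like subunit, was at 108 and 104 CPM in siControl and 211 and 175 CPM in siPcgf5 (0.87, SE 0.219). Id3, an inhibitor of basic helix-loop-helix factors that responds to BMP signalling, was at 292 and 286 CPM in siControl and 454 and 430 CPM in siPcgf5 (0.62, SE 0.219). In these genes the libraries of a group lay close together. Dpf2, a BAF subunit, was at 81.0 and 66.3 CPM in siControl and 126 and 112 CPM in siPcgf5 (0.69, SE 0.225). With edgeR the adjusted p was 0.767 for Tmem37, 0.787 for Ctsb and 1.00 for Id3 and Dpf2. DESeq2 on the 4 morula libraries called Ctsb (adjusted p = 4.62e-05), Tmem37 (3.06e-04), Id3 (0.00863) and Dpf2 (0.0488) higher, and Hand1, described with the trophectoderm genes, as the fifth. On 8 libraries DESeq2 called none of them.

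Of the remaining higher genes, Acsl4, an X-linked enzyme that activates long polyunsaturated fatty acids, was at 71.1 and 115 CPM in siControl and 173 and 148 CPM in siPcgf5 (0.79, SE 0.251). Btg1, a regulator of proliferation and mRNA turnover, was at 131 and 195 CPM in siControl and 292 and 229 CPM in siPcgf5 (0.68, SE 0.242). In both, siControl replicate 1 was the lowest library. Ptpn11, the SHP2 phosphatase of receptor kinase signalling, was at 46.8 and 46.1 CPM in siControl and 80.5 and 65.0 CPM in siPcgf5 (0.65, SE 0.227). Atp6ap1l, Pla2g10, Tubb5, Yy2 and Gde1 had log2 fold changes of 1.04, 0.81, 0.78, 0.72 and 0.59. No gene of the higher set passed with edgeR on the 8 libraries or on the 4 morula libraries. With 1 of the 4 left out, Ctsb passed whichever library it was (adjusted p from 0.00530 to 0.0392), Acsl4 (0.00326) and Btg1 (0.0131) passed without siControl replicate 2, and Tmem37 (0.0355) without siPcgf5 replicate 2.

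**Figure D3:**
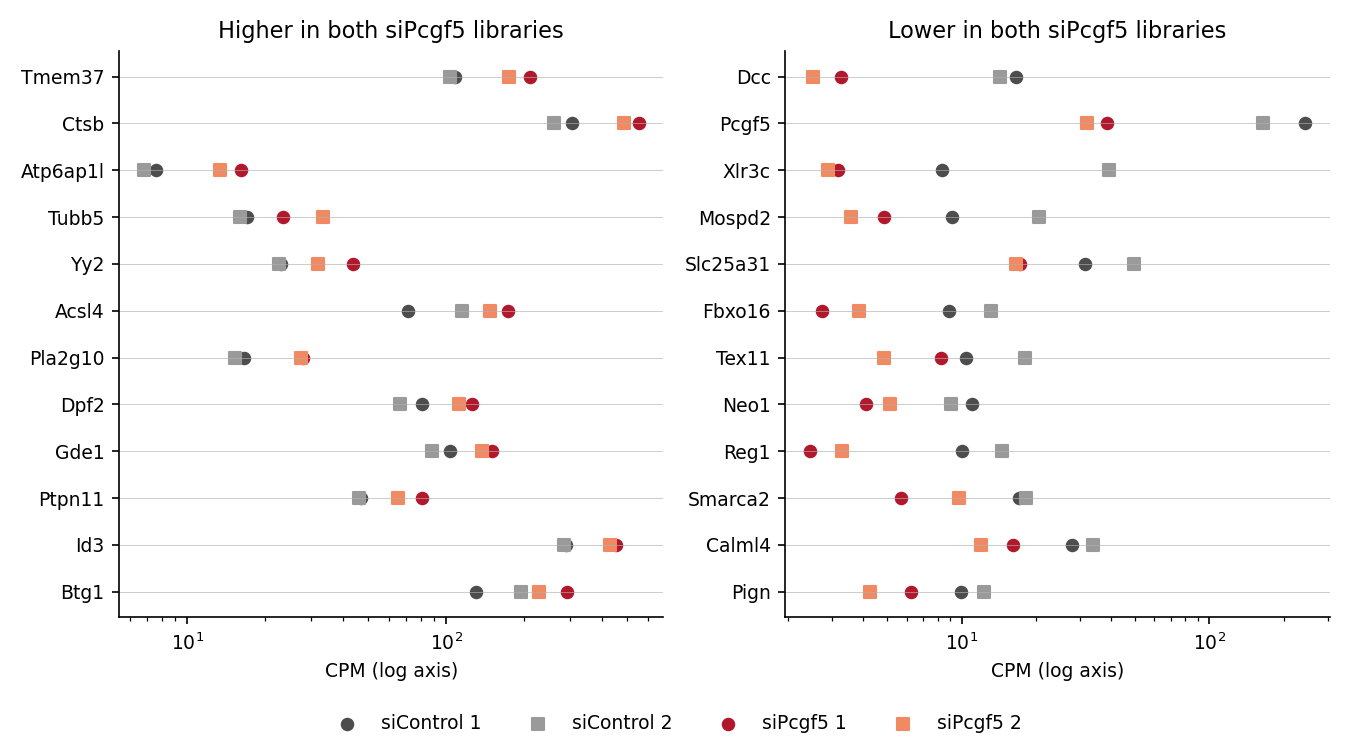
CPM (log axis) in each morula library for the 12 genes of smallest p in each direction among those with at least 10 CPM whose groups do not overlap (predicted genes left out); grey points are siControl and red points siPcgf5, circles replicate 1 and squares replicate 2. For Dcc and Smarca2 the controls sit close together well above the treated libraries. The Pcgf5 controls lie further apart, at 243 and 165 CPM, and far above the treated libraries. Xlr3c and Mospd2 owe much of their distance to siControl replicate 2.

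Some genes of low abundance were at 0 in both libraries of one group and counted in both of the other. Of the 16980 genes tested, 137 were so at 0 in siPcgf5 and 96 at 0 in siControl, counting only genes with more than 3 counts summed over the other group. The genes named next were chosen after their values were seen. Lefty1, an antagonist of NODAL, had 27 and 30 counts in siControl and none after knockdown, which made it at least 18.2-fold lower against a floor of 3 counts over the group. Col2a1, a cartilage collagen, had 18 and 60 counts in siControl and was at least 24.9-fold lower. In the other direction Ppp1r3c, a glycogen-targeting phosphatase subunit, had 38 and 28 counts in siPcgf5 and was at least 24.3-fold higher than in siControl. DESeq2 on the 8 libraries called Lefty1, Col2a1 and Ppp1r3c (adjusted p = 0.0164, 0.0121 and 0.0233). The edgeR fit of 8 libraries called them only without the filter on low counts (adjusted p = 0.0186, 0.0226 and 0.0493). All of these levels were at most 1.53 CPM in a library.

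In the edgeR fit of the 8 libraries no subunit of the Polycomb machinery passed. Of 25 catalytic and variant PRC1 subunits 0 passed, 4 (16%) were higher in both treated libraries and 6 (24%) lower, against 13.8% and 17.7% of all genes, with a median log2 fold change of 0.01 against -0.01. Rnf2, the main ligase, was at 205 and 207 CPM in siControl and 211 and 208 CPM in siPcgf5 (0.02, SE 0.230). Mga, which belongs to the PCGF6 complex, was at 119.3 and 134.7 CPM in siControl and 104.4 and 79.7 CPM in siPcgf5 (-0.46, SE 0.252). Rybp, a shared subunit of variant complexes, overlapped between groups at 87.8 to 97.4 CPM. Of 10 canonical subunits 0 passed (2 higher, 1 lower, median 0.23). Scml2, X-linked, was the member of smallest p at 0.38 and 0.25 CPM in siControl and 0.90 and 0.63 CPM in siPcgf5. Of 11 PRC2 subunits 0 passed (2 higher, 0 lower, median 0.02), and Ezh2, the methyltransferase, was at 124 and 109 CPM in siControl and 151 and 131 CPM in siPcgf5 (0.28, SE 0.199). Of 14 H2A deubiquitinases and partners 0 passed (2 higher, 2 lower, median 0.03). Usp3, a deubiquitinase of H2A, was at 12.7 and 19.2 CPM in siControl and 10.1 and 9.96 CPM in siPcgf5 (-0.68, SE 0.326).

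Developmental genes that Polycomb is known to silence separated about as often as other genes did. Of 117 listed genes 90 were tested, 0 passed with edgeR, 13 (14.4%) were higher in both treated libraries and 16 (17.8%) lower, shares close to those of all genes (13.8% and 17.7%), and the median was -0.01. Most were barely detected, and 10 of those tested were at 0 in all 4 libraries. Hand1, a factor of trophoblast giant cells and early heart, was the most abundant of those that separated, at 33.8 and 29.1 CPM in siControl and 66.5 and 53.6 CPM in siPcgf5. Both treated libraries lay above both controls, and the log2 fold change of 0.93 (SE 0.350) did not pass (edgeR adjusted p = 1.00). DESeq2 on the 4 morula libraries called it higher (adjusted p = 0.00634). Lmx1a, a neural homeobox gene, was at 0.61 and 4.50 CPM in siControl and 0.39 and 0.090 CPM in siPcgf5, a distance carried by siControl replicate 2 (adjusted p = 0.0481 with DESeq2 on 8 libraries, and 0.0326 with edgeR on the 4 morula libraries without siControl replicate 1). Gata2 was at 0.36 and 0.28 CPM in siControl and 0.097 and 0.090 CPM in siPcgf5 (-1.74, SE 0.745). Gata6 and Tbx20, also among the more abundant listed genes, overlapped between groups at 169 to 204 and 42.4 to 55.5 CPM. Promoter CG content did not set the genes apart either: among genes with at least 10 CPM the median was 22 CG per first-listed window for those higher in both treated libraries, for those lower and for those overlapping alike, with a window for 5182 of 6697 genes.

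**Figure D4:**
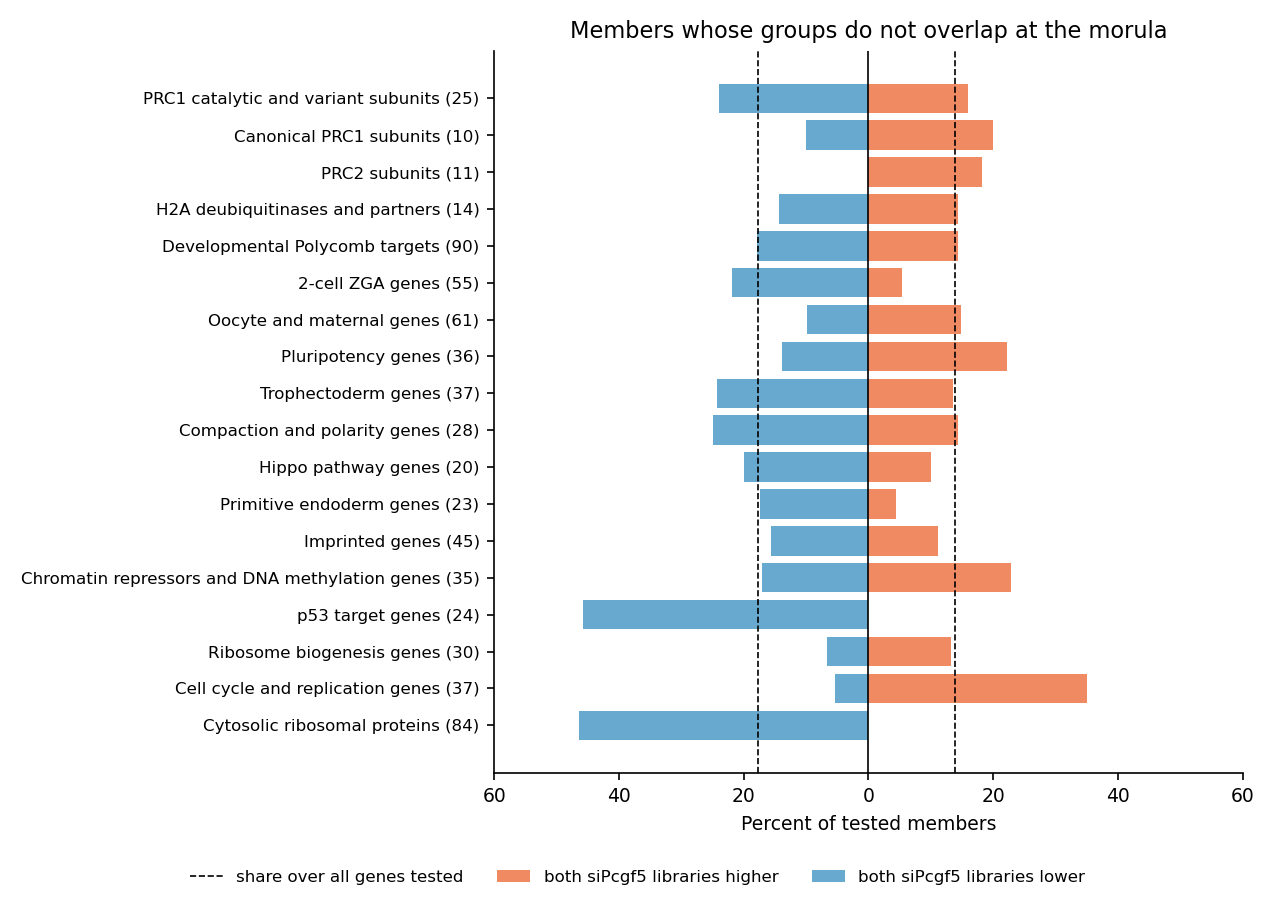
Share of the tested members of each gene list whose siPcgf5 libraries both lay above (orange, right) or both below (blue, left) both siControl libraries, with the number tested in brackets; dashed lines give the shares over all 16980 genes, 13.8% higher and 17.7% lower. Polycomb targets follow the dashed lines, p53 targets (45.8%) and ribosomal proteins (46.4%) extend to the lower side and cell cycle genes (35.1%) to the higher side.

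Targets of p53, the factor that arrests or kills stressed cells, were more often below the controls than above them. Of 24 members 0 passed, 11 (45.8%) were lower in both treated libraries against 17.7% of all genes, 0 were higher in both, and 21 had a negative log2 fold change. Of these targets 19 reached 10 CPM in a library, and 19.7% of all genes with a mean of at least 10 CPM were lower. The median was -0.33 at the morula and 0.11 at the late 2-cell stage. Eda2r, a receptor gene on the X chromosome, was at 96.1 and 103 CPM in siControl and 64.7 and 62.7 CPM in siPcgf5 (-0.64, SE 0.345). Pmaip1, which encodes the BH3-only killer NOXA, was at 6.70 and 13 CPM in siControl and 3.16 and 5.76 CPM in siPcgf5 (-1.14, SE 0.483). Sesn1, a stress-induced inhibitor of mTORC1, was at 10.6 and 15 CPM in siControl and 6.67 and 8.17 CPM in siPcgf5 (-0.79, SE 0.372). The familiar targets Cdkn1a, Mdm2 and Bax, named after their values were seen, were lower by less. Cdkn1a, the p21 inhibitor of cyclin-dependent kinases, was at 424 and 412 CPM in siControl and 294 and 359 CPM in siPcgf5 (-0.36, SE 0.256). Mdm2, the ligase that degrades p53, was at 120 and 132 CPM in siControl and 101 and 105 CPM in siPcgf5 (-0.30, SE 0.237). Bax, an effector of cell death, was at 174 and 171 CPM in siControl and 141 and 147 CPM in siPcgf5 (-0.26, SE 0.226). The listed genes respond to one factor and are not independent of each other, and siPcgf5 replicate 1 was the lower treated library for most of them: without it the median was -0.23, without siPcgf5 replicate 2 it was -0.47, and without siControl replicate 2 it was -0.21.

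Cell cycle and replication genes lay slightly on the other side. Of 37 members 0 passed, 13 (35.1%) were higher in both treated libraries and 2 were lower, with a median of 0.15. The higher share was 13.8% over all genes and 17.3% over those with at least 10 CPM. The late 2-cell median was 0.14. Ccnd2, a G1 cyclin, was at 1.02 and 1.98 CPM in siControl and 3.54 and 3.70 CPM in siPcgf5 (1.27, SE 0.443). Mcm3, a subunit of the replicative helicase, was at 41.3 and 36.3 CPM in siControl and 52.3 and 51.6 CPM in siPcgf5 (0.42, SE 0.242). Ccne2, a cyclin of the G1 to S transition, was lower at 22.9 and 29.3 CPM in siControl against 15.8 and 22.1 CPM in siPcgf5 (-0.46, SE 0.251). Pcna and Ccnb1, the abundant replication clamp and mitotic cyclin, overlapped between groups with log2 fold changes of -0.04 and 0.05.

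Trophectoderm genes pointed both ways, and much of their spread lay between the siPcgf5 libraries. Of 37 members 0 passed, 5 were higher in both treated libraries, 9 (24.3%) were lower, against 13.8% and 17.7% of all genes, and the median was -0.21. It was 0.10 without siPcgf5 replicate 1 and -0.65 without siPcgf5 replicate 2, so its direction rests on 1 library. Krt18, a keratin of the trophectoderm, was at 25.8 and 37.2 CPM in siControl and 11.3 and 36.2 CPM in siPcgf5. Gata3, a trophectoderm factor, was at 45.8 and 35.7 CPM in siControl and 14.8 and 43.3 CPM in siPcgf5. In both genes siPcgf5 replicate 1 alone was low and replicate 2 lay between the controls. Atp1b1, the beta subunit of the sodium pump that fills the blastocoel, was low in both treated libraries, at 14.2 and 17.3 CPM in siControl and 7.31 and 8.96 CPM in siPcgf5 (-0.95, SE 0.317). Tspan8, a tetraspanin, was at 10.7 and 13.6 CPM in siControl and 6.28 and 9.12 CPM in siPcgf5 (-0.66, SE 0.310). Cdx2 also lay lower in both treated libraries, at 3.78 and 3.79 CPM in siControl and 2.42 and 2.21 CPM in siPcgf5. Against these, Hand1 was higher as given above, and so was Tead4, the Hippo-regulated factor that starts the trophectoderm programme, at 42.2 and 37.2 CPM in siControl and 62.0 and 51.2 CPM in siPcgf5 (0.51, SE 0.339).

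**Figure D5:**
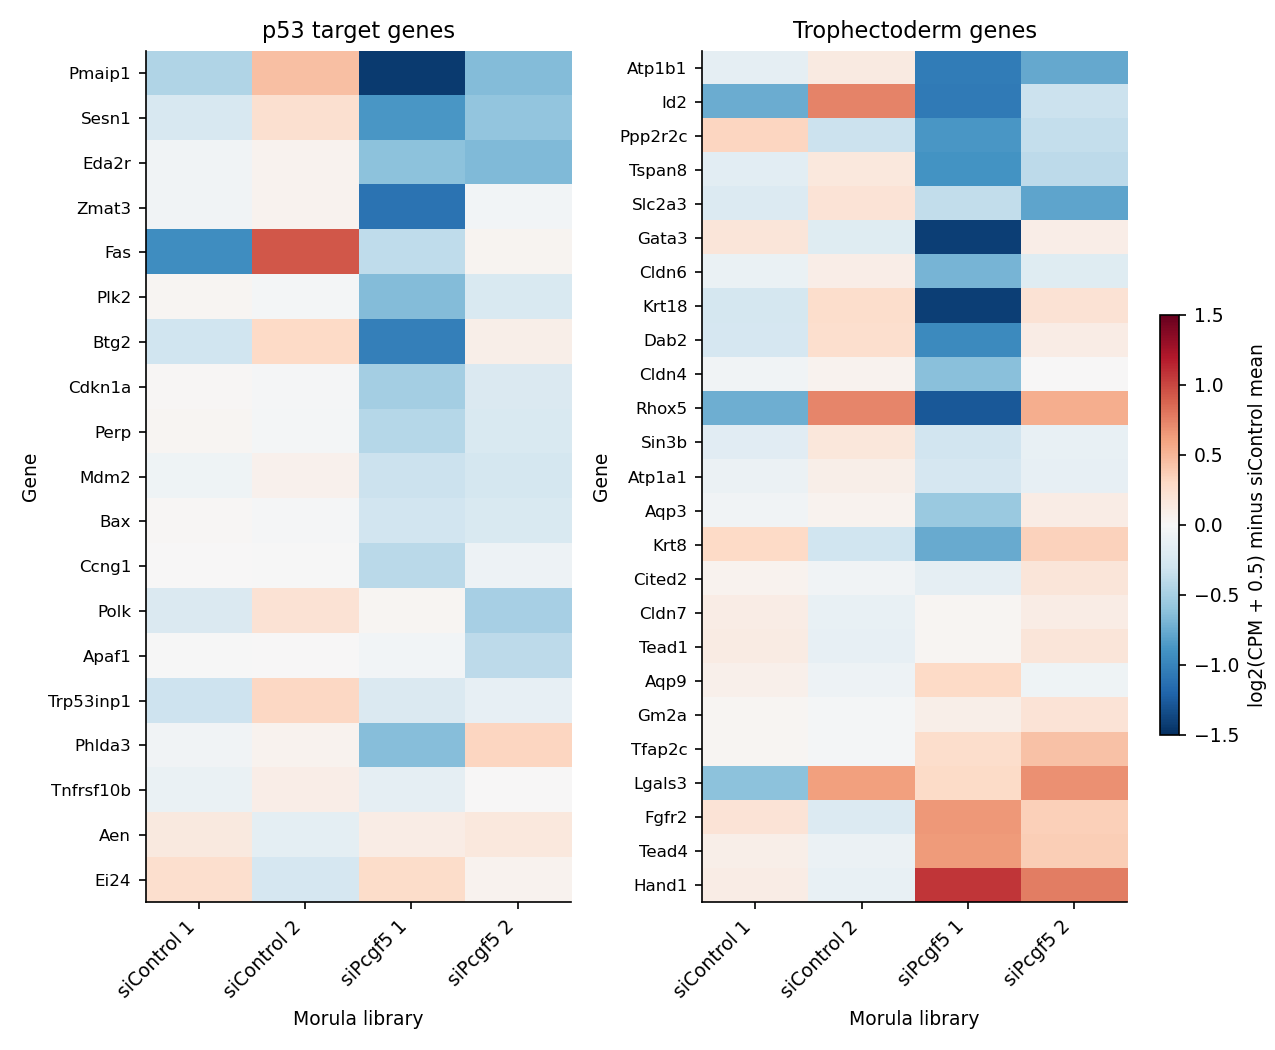
Log2(CPM + 0.5) minus the siControl mean in each morula library for the 19 p53 targets and 25 trophectoderm genes that reached 10 CPM in a library, sorted by log2 fold change; blue is below and red above the control mean. Most p53 targets are blue in both siPcgf5 columns, while for trophectoderm genes such as Krt18 and Gata3 the deep blue is confined to siPcgf5 replicate 1.

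Genes of compaction, lineage and pluripotency gave no call. Of 28 compaction and polarity genes 0 passed, 4 (14.3%) were higher and 7 (25%) lower, against 13.8% and 17.7% of all genes, with a median of -0.06. F11r, a tight junction adhesion molecule, was at 121 and 121 CPM in siControl and 170 and 154 CPM in siPcgf5 (0.43, SE 0.223), and Pard3, of the apical polarity complex, at 12.1 and 15.4 CPM in siControl and 9.67 and 10.5 CPM in siPcgf5 (-0.45, SE 0.350). Of 20 Hippo pathway genes 2 were higher and 4 lower (median -0.01), and of 23 primitive endoderm genes 1 was higher and 4 lower (median -0.16). Of 36 pluripotency genes 8 (22.2%) were higher and 5 lower, with a median of 0.04. Tdgf1, the NODAL co-receptor Cripto, was at 87.0 and 95.2 CPM in siControl and 160 and 123 CPM in siPcgf5 (0.63, SE 0.367). Tdh, the threonine dehydrogenase of naive pluripotent cells, was at 35.4 and 34.7 CPM in siControl and 52.5 and 59.9 CPM in siPcgf5 (0.68, SE 0.290). Pou5f1 and Sall4 overlapped between groups, with log2 fold changes of -0.12 and -0.06.

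Genes of the 2-cell stage separated to the lower side about as often as all genes, but more often had a small unadjusted p with 8 libraries. That fit takes its spread from the late 2-cell libraries too, so these p-values do not rest on the morula libraries alone. Of 55 genes of zygotic genome activation (ZGA) 0 passed, 3 (5.45%) were higher in both treated libraries and 12 (21.8%) lower, against 13.8% and 17.7% of all genes. At an unadjusted p under 0.05 (edgeR, 8 libraries) 2 of the 55 were higher and 9 lower, against 1.5% and 2.72% of all genes. The 4 members of smallest p there, Usp17ld, Gm5662, Arg2 and Spz1, had an unadjusted p of 0.00106, 0.0185, 0.0226 and 0.0227. With edgeR on the 4 morula libraries alone the unadjusted p was 0.0585, 0.0958, 0.0206 and 0.0361. The median of the list was -0.10 at the morula and 0.23 at the late 2-cell stage. Without siControl replicate 1 the morula median was 0.08, and the summed level of the list was higher in the treated libraries, at 8082 and 7135 CPM against 6930 and 6305 CPM. The median and the summed level thus differ in direction. Gm5662 was at 61.0 and 88.6 CPM in siControl and 37.2 and 10.2 CPM in siPcgf5 (-1.66, SE 0.579), a gene with near-identical copies whose value is uncertain. With edgeR on the 4 morula libraries it passed only without siPcgf5 replicate 1 (adjusted p = 1.96e-06). Arg2, a mitochondrial arginase, was at 14.5 and 32.7 CPM in siControl and 13.1 and 10.6 CPM in siPcgf5 (-1.0, SE 0.374). The abundant members Dppa2 and Alppl2, named after their values were seen, were higher in both treated libraries, with log2 fold changes of 0.30 and 0.54, and Alppl2 passed with edgeR on the 4 morula libraries without siControl replicate 1 (adjusted p = 0.00248). Genes lower in untreated 4-cell than in siControl late 2-cell embryos formed a list without the morula libraries. The siControl late 2-cell libraries also entered the 8-library fit. The list is therefore not independent of the filter and the p-values of that fit. For example 9130409I23Rik, a gene of this list, was not tested with edgeR on the 4 morula libraries. The list had 176 (9.28%) higher and 334 (17.6%) lower of 1897, again beside 13.8% and 17.7%, with a median of -0.06. At an unadjusted p under 0.05 in the 8-library fit 89 of these 1897 were higher and 167 lower. Over all 16980 genes 254 (1.5%) were higher and 462 (2.72%) lower, so both directions were more frequent in the list. Of 656 genes higher at the 4-cell stage 114 (17.4%) were higher and 98 (14.9%) lower (median 0.02). The 61 oocyte and maternal genes split evenly, with 9 higher, 6 lower and a median of 0.00.

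Imprinted and X-linked genes bear on the known roles of this complex. Of 45 imprinted genes 0 passed (5 or 11.1% higher and 7 or 15.6% lower, against 13.8% and 17.7% of all genes, median -0.05), and of 18 genes of noncanonical imprinting, which rests on maternal Polycomb marks, 5 were higher and 3 lower (median -0.01). Sfmbt2, a Polycomb-related gene expressed from the paternal allele, was at 5.98 and 4.78 CPM in siControl and 2.26 and 2.87 CPM in siPcgf5 (-1.07, SE 0.536). Etv6, a transcriptional repressor, was at 16.3 and 12.5 CPM in siControl and 30.1 and 20.7 CPM in siPcgf5 (0.82, SE 0.370). Xist, the RNA that coats the inactive X chromosome, overlapped between groups at 24.4 and 48.0 CPM in siControl and 24.0 and 39.4 CPM in siPcgf5 (-0.19, SE 0.507). Among 217 X-linked protein-coding genes with at least 10 CPM, 25 (11.5%) were higher and 42 (19.4%) lower, against 17.7% and 19.6% of 6043 autosomal genes, and the medians were -0.08 and -0.01. The X-linked genes summed to 45980 and 53430 CPM in siControl and 48020 and 48860 CPM in siPcgf5, so siControl replicate 2 stood above the other libraries, and without it the X-linked median was 0.03. Of the genes of smallest p, 2 of 12 higher and 3 of 12 lower were X-linked, against 3.52% of genes of that level. These sets were picked by their values and leave out predicted genes, which the 3.52% includes, so this only describes the choice. The lower X-linked genes, Xlr3c, Mospd2 and Tex11, were each highest in siControl replicate 2. The sex of pooled embryos can move X-linked and Y-linked sums: the 8 Y-linked genes tested summed to 295 and 245 CPM in siControl and 211 and 249 CPM in siPcgf5, with a median log2 fold change of -0.19. Ddx3y, the Y-linked RNA helicase, was at 91 and 78.4 CPM in siControl and 65.1 and 76.5 CPM in siPcgf5. The part of the sex ratio in the X-linked values was not tested.

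Ribosomal protein mRNAs mostly lay slightly below the controls. Of 84 members 0 passed, 39 (46.4%) were lower in both treated libraries and 0 higher, against 17.7% and 13.8% of all genes. Among genes with at least 10 CPM these shares were 19.7% and 17.3%. The median was only -0.10, and it was -0.05 with DESeq2 size factors and -0.05 without siControl replicate 1. At the late 2-cell stage the median was 0.37, on the other side. Their summed level was 141000 and 132300 CPM in siControl and 128200 and 129900 CPM in siPcgf5, so the largest distance lay between siControl replicate 1 and the other libraries. Rps27l, a ribosomal protein variant known as a p53 target, was at 1671 and 2101 CPM in siControl and 1322 and 1640 CPM in siPcgf5 (-0.35, SE 0.215). Of 30 ribosome biogenesis genes 4 were higher and 2 lower (median 0.06), and of 35 chromatin repressors and DNA methylation genes 8 were higher and 6 lower (median 0.10). Glycolysis genes (21 tested, median -0.07), heat shock and stress genes (23 tested, median 0.02) and X inactivation regulators (14 tested, median 0.01) had 2 or 3 members higher and 2 to 5 lower, and 0 of all these members passed with edgeR.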

How the data were processed

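RNA was measured in pools of mouse embryos. Each deposited file holds an RSEM expected count per gene, not normalised by the authors, and the authors' TPM (abundance scaled to a common total per library), per the file headers. STAR 2.7.10 and RSEM 1.3.3 are named in the submitters' processing notes with mm10, without their roles; filters on reads are not given in the sources used here. Of 24411 gene symbols, 23194 matched RefSeq (GRCm38.p6), used for positions and promoter windows.

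Expected counts were rounded. The 8 knockdown libraries were fitted with edgeR 4.0.16 in R 4.3.3 (TMM, filterByExpr with a minimum count of 10, robust quasi-likelihood F test, two-sided, no replicate block, Benjamini-Hochberg over all 16980 genes, threshold 0.05), which gave a common coefficient of variation of 0.46. Depths are given with the results, and counting floors cover counting error only, since reads without molecular identifiers are not independent molecules. The fit was tested on simulated counts. Alternatives were the 4 morula libraries alone, DESeq2 1.42.0, limma 3.58.1 on log2(TPM + 1), DESeq2 size factors, no filter, a replicate block and leaving out single libraries.

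The 27 lists hold 745 genes, of which 735 matched, 5 by an older symbol, and a gene may be in several. The libraries and lists were chosen with earlier results of these data known. The naming rule took Pcgf5, the 12 genes of smallest p per direction with at least 10 CPM in the higher group and groups that do not overlap (predicted genes and pseudogenes left out), up to 6 called genes per method and direction, the 4 members of smallest p in each list, all Pcgf and Y-linked genes and Xist. Members named besides these, as examples of a list that did or did not separate, were chosen after their values were seen. No list was tested as a set.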

Additional observations from a re-analysis of the deposited data

How the results depend on the processing

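Pcgf5 was lower under all alternatives, and its side of the threshold depended on the tool and on the libraries fitted. Its log2 fold change was -2.48 with DESeq2 on 8 libraries, -2.50 with edgeR and -2.50 with DESeq2 on the 4 morula libraries, each past the threshold. Leaving out single libraries gave -2.79 to -2.23 in the 8-library fit, none past it, and, in fits of the 4 morula libraries added after seeing the data, -2.76, -2.68, -2.34 and -2.18, all past it. The common coefficient of variation was 0.46 with 8 libraries and 0.312 with 4. Without siControl late 2-cell replicate 1, an alternative also added after seeing the data, Pcgf5 was at -2.50 with an adjusted p of 0.109 and 0 genes were called.

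The count of called genes, 0 with edgeR on 8 libraries, was 26 without the filter on low counts, 29 with DESeq2, 1 with edgeR and 23 with DESeq2 on the 4 morula libraries, and 0 with DESeq2 size factors or limma. Leaving out morula libraries gave 0 to 6 with 8 libraries (6 without siPcgf5 replicate 1 and 2 without siControl replicate 1) and, with 4, 35 and 7 without siControl replicates 1 and 2 and 16 and 12 without siPcgf5 replicates 1 and 2. A lone library is there assumed to vary like the other groups. With the replicate number as a block in the 4 morula libraries, 1 gene was called, Pcgf5, at -2.48 (edgeR adjusted p = 0.00653). Same-numbered libraries did not deviate together (correlation 0.0022 over 16980 genes). Whether they shared a fertilisation or a culture is not in the labels, and this correlation cannot settle it.

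Of 2197 values for named genes under these alternatives, 48 came past the threshold, 37 had the opposite sign without passing it in either fit, and 8 were 0 in one fit. The sign changes belonged to 15 genes and all came from leaving out 1 library. The log2 fold changes of these genes in the 8-library fit with 1 morula library left out were, as lowest to highest, Bmi1 -0.089 to 0.31, Phc3 -2.28 to 0.22, Phf1 -0.17 to 1.69, Slc16a3 -5.46 to 2.4, Atf3 -3.15 to 5.98, Smchd1 -0.058 to 0.40, Zfy1 -0.19 to 1.34, Usp9y -1.12 to 0.90, Zfy2 -0.43 to 0.064, Kdm5d -1.17 to 0.42, Uba1y -0.50 to 0.43, Col1a1 -8.0 to 1.53, Odf1 -0.27 to 6.25, Prm2 -0.22 to 1.25 and Xist -0.60 to 0.38. In the fits of the 4 morula libraries with 1 left out, the values of opposite sign were Bmi1 -0.024, Phc3 0.22, Phf1 -0.17, Smchd1 -0.058, Zfy1 -0.16 and -0.10, Usp9y 0.94, Zfy2 0.063, Kdm5d 0.21 and 0.48, Uba1y 0.48 and 0.33, Odf1 -0.24, Prm2 -0.21 and -0.048 and Xist 0.39 and 0.12. The cause was not tested. Of 562 list medians, 496 moved by less than the spread between replicates, 66 by more, and 113 changed sign. Genes under about 1 CPM rest on few counts.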

Other observations

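Some genes stood apart in siControl replicate 2 alone, which were chosen here after their values were seen. Eif3j1, one of a pair of near-identical genes for a translation initiation factor, was at 0.051 and 56.2 CPM in siControl and 0 and 0.023 CPM in siPcgf5. Xlr, of the same X-linked family as Xlr3c, was at 48.1 and 179 CPM in siControl and 34.8 and 38.9 CPM in siPcgf5. Snai2, a factor of epithelial to mesenchymal transition, was at 1.20 and 11 CPM in siControl and 0.48 and 0.45 CPM in siPcgf5, and DESeq2 on the 4 morula libraries called it lower (adjusted p = 0.00706). The log2 fold change of Eif3j1, -10.73, was the lowest of all genes tested.

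Chromosomes differed in how many genes separated. Among genes with at least 10 CPM, 97 of 305 on chromosome 10 were lower in both treated libraries (31.8%) and 39 higher (12.8%), with a median log2 fold change of -0.08. On chromosome 11 the counts were 92 lower (17.2%) and 124 higher (23.2%) of 535, with a median of 0.05. Over all such genes the shares were 19.7% lower and 17.3% higher, and no test was made of these differences.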
